A study of Caenorhabditis elegans with 12 samples.

Results

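The genes idpp-2 and idpp-7 of Caenorhabditis elegans are described here in wild-type worms kept with or without lithium chloride (LiCl). They were taken by gene symbol, after the annotation of the array's probes had been updated to the WBcel235 symbols. This gave 2 probes, 1 for each gene, out of 22370 probes on the array and 8187 named genes. Another 26 genes whose symbol starts with idp carried 1 probe each and served as the background family. Both genes were picked with the LiCl comparison already known, so their LiCl values are a description and no p-value is given for them.

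All worms were N2 hermaphrodites that grew from the egg at 20 °C and then spent 48 h at 25 °C. The 6 control samples had no drug, and the 6 LiCl samples had 10 mM LiCl in that period. The submitters describe the samples as grown and harvested separately. Each sample held 50 picked worms, whose amplified RNA (5 µg, Cy5) shared an array with a common reference, RNA of pooled mixed-stage N2 worms carrying Cy3. The age at harvest is not stated in the sources used here, and whole worms were extracted, so fewer cells of a type and less RNA per cell cannot be told apart.

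The idp genes were named for predicted intrinsically disordered proteins, which are proteins with long stretches that hold no fixed fold. The names used here (idpa, idpb, idpc and idpp) belong to genes linked to the pharynx, the muscular pump through which the worm feeds. Its inner surface is lined by a chitin-containing cuticle that is shed and rebuilt at each moult, and many proteins of that lining are disordered and of low sequence complexity. This is background on the gene classes. No particular role of idpp-2 (B0348.5, chromosome V) or idpp-7 (T23F6.1, chromosome IV) is assumed.

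Levels are deposited log ratios of sample to reference, in the deposited units. A value above 0 most likely means more signal in the sample than in the reference. This direction is likely rather than stated, as the labels give Cy5 to the samples. In control worms all 5 probes of oocyte and early embryo genes (memi-1, memi-2 and memi-3) had means above 0. Of 24 neuropeptide probes 20 had means below it. Means were also above 0 for 7 of 10 sperm probes. They were below 0 for all 7 probes of body cuticle and moulting genes, 2 of 3 pharynx probes and the 1 intestine probe. Reading a direction from such lists depends on the stage of the worms, and their age at harvest is not stated. With the ratio turned, each higher value here would read as a lower one. Array medians ran from 0.018 to 0.044, and each array lacked values for 16 to 150 probes. Correlations between arrays ran from 0.523 to 0.779. LiCl replicate 1 had the lowest array weight (0.524), an estimate of how well an array follows its group. LiCl replicate 2 had the next lowest weight (0.612) and the lowest median correlation with its own group (0.642). Among controls replicate 5 was lowest in both, at 0.698 and 0.657.

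idpp-2 lay above 0 in every sample, if under the array median (0.030) in control replicate 3, and was far higher in LiCl worms. In the control replicates 1 to 6 its log ratio was 1.23, 1.11, 0.020, 1.16, 0.289 and 1.06. Control replicates 3 and 5 lay well below the other 4 controls, which were within a narrow band. In the LiCl replicates 1 to 6 it was 3.07, 2.46, 3.66, 3.12, 3.37 and 2.71. The groups did not overlap: the lowest LiCl value stood 1.23 units above the highest control value. Control arrays had a mean of 0.81 ± 0.52 (SD, n = 6), and LiCl arrays had one of 3.06 ± 0.44 (SD, n = 6). The difference, LiCl minus control, was 2.25 ± 0.27 (SE), or 4.71 times the pooled SD within groups. By size it was the 38th highest of the 22370 probes and the 23rd highest among the named ones.

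idpp-7 lay below the reference in control worms and above it in LiCl worms. In the control replicates 1 to 6 its log ratio was -0.49, -0.85, -0.41, -0.50, -0.63 and -0.51. In the LiCl replicates 1 to 6 it was 0.876, 0.231, 0.966, 0.459, 0.635 and 0.419. Every control value was thus below 0 and every LiCl value above it, and 0.64 units separated the highest control from the lowest LiCl array. The mean of the controls was -0.57 ± 0.16 (SD, n = 6), and LiCl arrays averaged 0.60 ± 0.28 (SD, n = 6). The difference, LiCl minus control, of 1.16 ± 0.16 (SE) was 5.07 times the pooled SD, which at 0.23 was the lowest among the 28 measured idp genes, against a median of 0.48 over all probes. In rank of difference idpp-7 was 662nd over all probes and 335th among named probes. Non-overlapping groups with LiCl above were found for 3.6% of all probes (806 probes), which is given as background only, since both genes were chosen on this contrast.

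**Figure D1:**
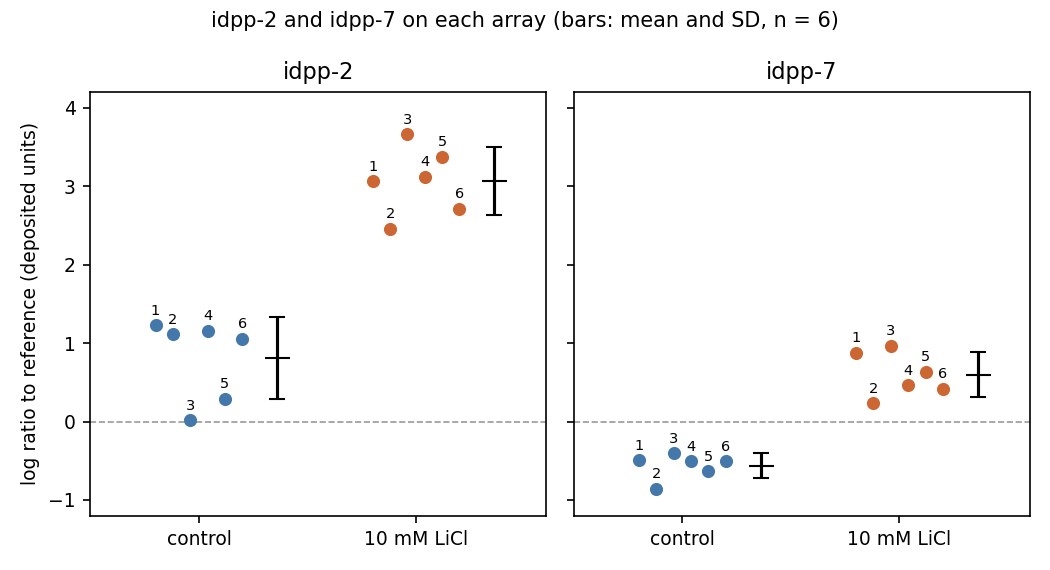
Log ratio to the reference (deposited units, vertical axis) of idpp-2 and idpp-7 on each of the 12 arrays, with the replicate number above each point and the mean and SD (n = 6) beside it. The 6 LiCl points lie above the 6 control points in both panels, and for idpp-7 the groups lie on opposite sides of 0.

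The groups being apart, the likeness of both genes was looked at within each group. Among the 6 LiCl arrays replicate 3 was the highest and replicate 2 the lowest for both genes. Pearson's r there was 0.83 (exact permutation test over 720 orders, two-sided, p = 0.0486, adjusted p = 0.0972 over the 2 groups). Spearman's rho was 0.83 (exact permutation test, p = 0.0583, adjusted p = 0.117). The relation thus did not pass the correction. After replicates 2 and 3, the arrays farthest from the median of idpp-2, were left out, r was 0.40 over 4 arrays. Leaving out the extremes narrows the range of idpp-2, so this cannot show whether the relation rested on them. With quantile normalization r was 0.68 (exact permutation test, p = 0.153). Among the 6 control arrays r was -0.27 (exact permutation test, p = 0.662, adjusted p = 0.662) and rho was -0.03 (exact permutation test, p = 1, adjusted p = 1). Without control replicates 3 and 5 it was 0.30 over 4 arrays. Control replicate 3, the lowest control for idpp-2, was the highest control for idpp-7, while replicate 5 was low in both genes.

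**Figure D2:**
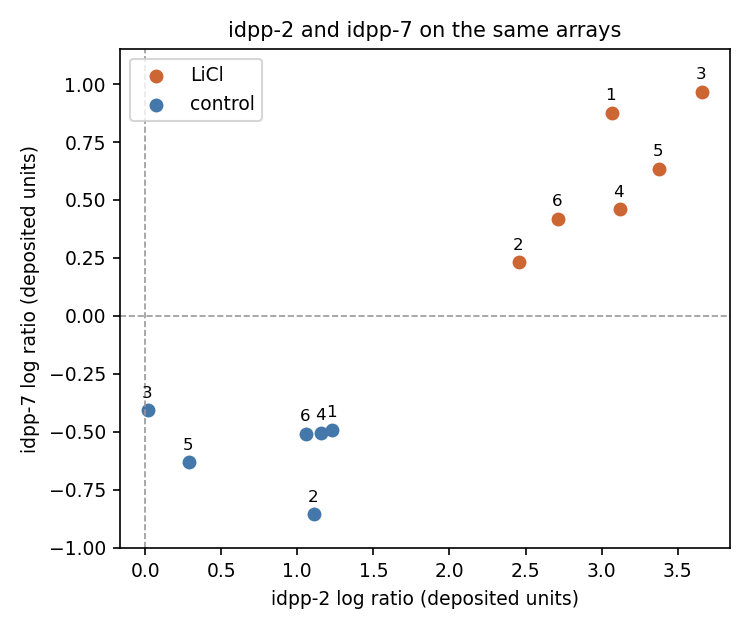
Log ratio of idpp-7 (vertical axis) against idpp-2 (horizontal axis), both in deposited units, 1 point per array with its replicate number. The control and LiCl arrays form separate clouds, with r = 0.83 within the LiCl cloud and r = -0.27 within the control cloud.

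The other idp genes were put to the test of LiCl against control. The annotation lists 31 idp genes, of which 28 had a named probe (3 idpa, 4 idpb, 5 idpc and 16 idpp genes), and idpb-5, idpc-3 and idpc-4 were not analysed here. Of the 26 genes other than idpp-2 and idpp-7, 1 passed the test (limma, Benjamini-Hochberg over all probes, adjusted p under 0.05) as higher in LiCl and none as lower. That is 3.85%, against 8.0% of all probes in either direction, 4.5% higher and 3.5% lower. The count ran from 0 to 2 when 1 array was left out. At an unadjusted limma p under 0.05 there were 3 of the 26, against 22.8% of all probes. The median difference of the 26 genes was 0.09, against 0.02 over all probes, with 16 above 0 and 10 below.

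idpa-3 was the gene that passed. Its log ratio in the control replicates 1 to 6 was -1.12, -1.09, -1.52, -1.29, -0.96 and -1.13. In the LiCl replicates 1 to 6 it was -0.11, -0.57, -1.05, -0.13, -0.45 and -0.12. Of the LiCl arrays 5 lay above every control array, and replicate 3, which was the highest LiCl array for both idpp genes, lay within the control range. idpa-3 rose by 0.78 ± 0.19 (SE, limma adjusted p = 0.0231) from -1.19 ± 0.19 (SD, n = 6) to -0.41 ± 0.37 (SD, n = 6), and stayed below the reference in both groups. Its adjusted p was 0.0540 without control replicate 3, 0.0522 without control replicate 4 and 0.0502 without LiCl replicate 4.

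Among the 16 idpp genes, the 14 apart from idpp-2 and idpp-7 had differences between -0.45 (idpp-8) and 0.94 (idpp-6). Of these 14 differences 10 were above 0 and 4 below. None passed the test, which 8.0% of all probes passed, so so small a set could hold none at that share. idpp-6 differed by 0.94 ± 0.41 (SE), with controls spread from -2.60 to 0.32 and a limma adjusted p of 0.198. Without control replicate 5, the highest control, it rose by 1.29 (limma adjusted p = 0.0240). idpp-13 differed by 0.87 ± 0.38 (SE, limma adjusted p = 0.190) and idpp-11 by 0.83 ± 0.51 (SE, limma adjusted p = 0.378). Leaving out 1 array gave 0.42 (without control replicate 2) to 1.18 for idpp-11, and -0.60 to -0.22 (without LiCl replicate 1) for idpp-8. idpp-6, idpp-13 and idpp-11 had wide control spreads, with SDs of 1.02, 0.91 and 1.27. idpp-12 had a narrower one and differed by 0.36 ± 0.17 (SE, limma adjusted p = 0.224), while idpp-4 was nearest to 0, at -0.00025 ± 0.16 (SE, limma adjusted p = 0.999).

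The remaining idpp genes did not pass either. Differences were 0.61 in idpp-10, 0.30 in idpp-16, 0.29 in idpp-3, 0.23 in idpp-15 and 0.21 in idpp-14. They were 0.07 in idpp-5, -0.07 in idpp-9 and -0.38 in idpp-1. Their SEs lay between 0.23 (idpp-15) and 0.49 (idpp-3).

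In the other classes, the 4 idpb genes differed by 0.58 (idpb-2), -0.13 (idpb-1), -0.15 (idpb-4) and -0.54 (idpb-3). The 5 idpc genes differed by 0.34 (idpc-6), 0.11 (idpc-2), 0.01 (idpc-7), -0.05 (idpc-1) and -0.45 (idpc-5). idpa-1 (0.02) and idpa-2 (-0.04) lay near 0. None of these passed the test (8.0% of all probes did), and the lowest limma adjusted p among them was 0.221, in idpb-3. The systematic names of idpc-5 (T06E4.8), idpc-6 (T06E4.9) and idpc-7 (T06E4.10) are consecutive, as are those of idpp-4 (M02G9.2) and idpp-8 (M02G9.3). Those of idpb-1 (C04G6.10) and idpb-3 (C04G6.7) share a stem.

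Relative to the mixed-stage reference, the family lay low. Of the 28 genes 25 had a control mean below 0, against 47.6% of all probes. The exceptions were idpc-5 (0.96), idpp-2 (0.81) and idpb-3 (0.17). In LiCl worms 25 means were below 0 again, with idpp-2, idpp-7 and idpc-5 above it. The lowest control mean, -2.90 ± 0.47 (SD, n = 6), was that of idpp-15. A log ratio does not give the amount of a transcript, and the genes are not ranked by level.

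**Figure D3:**
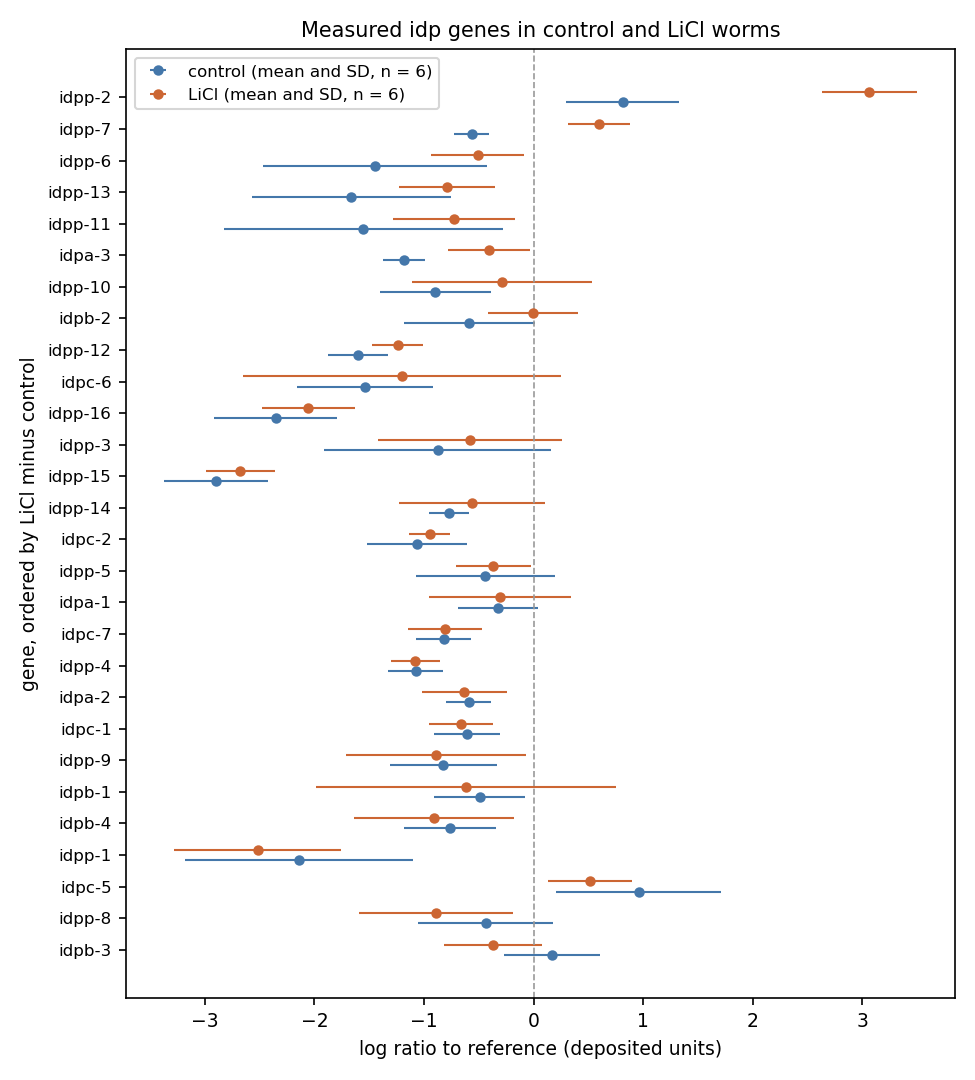
Mean log ratio to the reference with SD (deposited units, n = 6) of the 28 measured idp genes in control and LiCl worms, ordered from the highest LiCl minus control difference at the top. Most of the family lies below 0 in both groups. Single arrays are not drawn. idpp-2 and idpp-7 are the genes whose control and LiCl arrays do not overlap, and both were chosen on this contrast. Over all probes 3.6% had every LiCl array above every control array.

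Genes of the pharynx were scarce among the named probes. Of a list of pharynx genes taken by symbol 3 carried one, and 1 was called higher and 1 lower (8.0% of all probes were called). phat-8, of a family named for pharyngeal gland toxin-related proteins, rose by 1.01 ± 0.26 (SE, limma adjusted p = 0.0357), from -2.76 ± 0.55 (SD, n = 6) to -1.75 ± 0.37 (SD, n = 6). It missed the threshold, at adjusted p-values from 0.0554 to 0.0807, when control replicate 1, 3, 4 or 6 or LiCl replicate 1, 3, 5 or 6 was left out. pqn-15 entered the list through its symbol class, named for a prion-like glutamine- and asparagine-rich domain and not for the pharynx. From a control mean of 0.19 ± 0.20 (SD, n = 6) pqn-15 fell by 0.96 ± 0.19 (SE, limma adjusted p = 0.00749). phat-7 differed by 0.38 ± 0.28 (SE, limma adjusted p = 0.465). The mean log ratio of the 3 genes ran from -2.70 to -1.55 over the control arrays and from -2.59 to -1.74 over the LiCl arrays, which overlap. The defining pharyngeal muscle and pharyngeal fate genes had no named probe, so the amount of pharynx tissue was not measured, and its part in the idpp values was not tested.

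Of the list for the body cuticle and moulting 7 genes carried a probe, of which 2 were called higher and none lower (4.5% of all probes were called higher). ptr-25, a member of the patched-related family, rose by 1.67 ± 0.17 (SE, limma adjusted p = 0.000151), from -0.31 ± 0.22 (SD, n = 6) to 1.36 ± 0.29 (SD, n = 6). Its LiCl arrays all lay above its control arrays. bus-22, whose class is named for mutants that resist swelling by a bacterial pathogen, rose by 1.05 ± 0.24 (SE, limma adjusted p = 0.0171). bus-5, bus-6, bus-10, bus-24 and bus-28 were not called and lay between -0.66 and 0.08. Among other cell type markers, 1 of 24 neuropeptide probes was called higher. Of 10 sperm probes 1 was called higher and 1 lower, and of 5 oocyte and early embryo probes 1 was called lower (3.5% of all probes were called lower and 8.0% in either direction). Oocyte and embryo probes had a mean log ratio of 1.22 to 1.80 over the control arrays and 0.72 to 1.35 over the LiCl arrays, and whether this bears on the idpp genes was not tested. The intestine list had 1 probe, not called, and the hypodermis and body muscle lists had none.

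The genes whose values ran most like those of each idpp gene over the 12 arrays were then listed by Pearson's r among 8526 fully measured named probes. All arrays of a group share its treatment, so these values include the gap between control and LiCl worms. For idpp-2 the highest values were 0.957 for ptr-25, 0.955 for R03H10.6, 0.952 for Y71H2AM.12, 0.951 for Y73F8A.26 and 0.948 for fask-1. The lowest were -0.96 for mstr-1, -0.95 for pgm-1 and -0.94 for F14H3.5. For idpp-7 the highest were 0.975 for C07F11.2, 0.968 for K07D4.4, 0.966 for R03H10.6, 0.962 for C34B2.11 and 0.961 for T10G3.1. The lowest were -0.968 for W02D9.6, -0.967 for cdk-11.2, of a cyclin-dependent kinase family, and -0.960 for ZK856.11. R03H10.6 was on both lists of highest values. Its control mean was 2.93 ± 0.31 (SD, n = 6), and its LiCl mean 4.89 ± 0.40 (SD, n = 6). Its difference of 1.96 was 1.16 with quantile normalization.

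**Figure D4:**
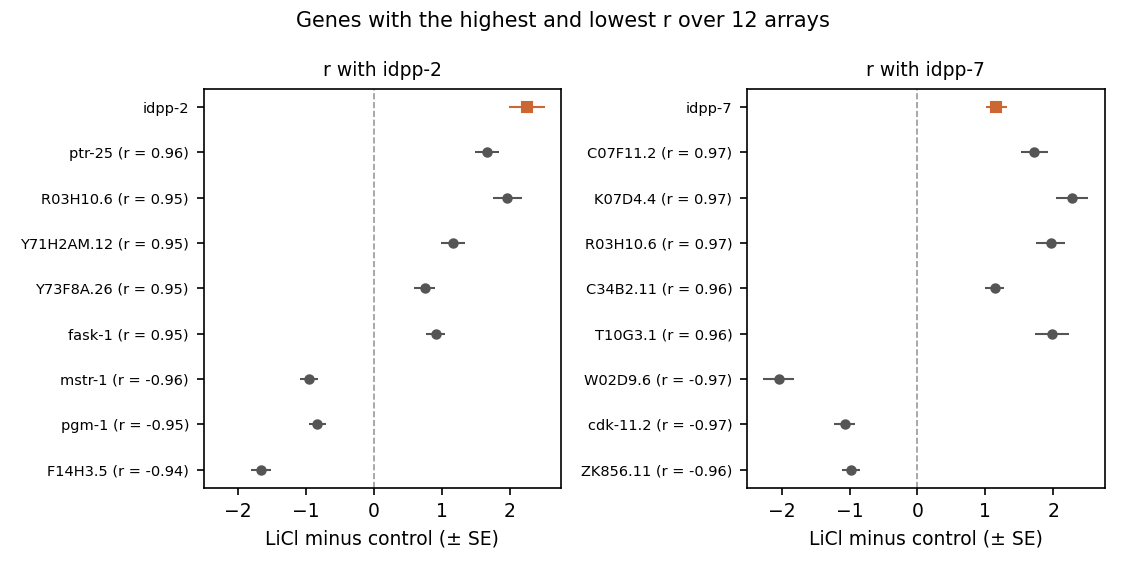
Difference LiCl minus control with SE (horizontal axis, deposited log ratio units) of idpp-2 and idpp-7 (squares) and of the named genes with the 5 highest and 3 lowest r against each over the 12 arrays (circles, r beside the name). Genes of positive r lie right of 0, between 0.75 (Y73F8A.26) and 2.28 (K07D4.4), and genes of negative r lie left of it. These sides largely follow from the choice by r, since the groups do not overlap for idpp-2 and idpp-7.

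By the same measure idpp-2 and idpp-7 had r = 0.92 with each other, the 34th highest value for either gene. After each group's mean was subtracted, their r was 0.36. Over the 26 other idp genes, r with idpp-2 had a median of 0.19 and with idpp-7 of 0.10, against medians of 0.06 and 0.05 over all named probes. The highest was idpa-3 for both (0.74 and 0.69) and the lowest idpb-3 for both (-0.53 and -0.49). Once each group's mean was subtracted, the order changed. The genes most like idpp-2 were then Y75D11A.3 (r = 0.94), C10E2.5 (0.86), R02D5.7 (0.86), Y116A8B.1 (0.85) and K09H11.6 (0.84). Those most like idpp-7 were Y39A3A.3 (0.91), C08F1.10 (0.87), Y108G3AL.2 (0.87), T07F10.3 (0.84) and enri-2 (0.83). No gene was on both of these lists, and none recurred from the lists over raw values. These are the highest of 8526 values over 12 arrays and are given as a description.

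The genes beside idpp-2 and idpp-7 in the annotation were looked up as well. idpp-2 is the first protein-coding gene in the order of chromosome V, with neighbours on 1 side only. Of the next 5 genes 2 had a named probe, B0348.2 (0.15 ± 0.30, SE) and B0348.1 (-0.03 ± 0.60, SE), and neither was called. Of the 5 genes on each side of idpp-7, 9 had a named probe, of which 1 was called higher and 1 lower (22.2%, against 8.0% of all probes). The nearest, C27D8.1 (0.12 ± 0.35, SE) and T23F6.2 (0.20 ± 0.50, SE), were not called. C27D8.3 rose by 0.67 ± 0.16 (SE, limma adjusted p = 0.0271) and C27D8.4, next to it, fell by 0.59 ± 0.15 (SE, limma adjusted p = 0.0348). These calls were close to the threshold, and were lost in 7 and 11 of 19 other settings. Losses came on leaving out control replicate 2, 3, 4 or 5 or LiCl replicate 3 or 5 for both, and also control replicate 1 or 6 or LiCl replicate 2 or 6 for C27D8.4 (adjusted p between 0.0506 and 0.0768). Neighbours were looked up after the values of idpp-2 and idpp-7 had been seen.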

How the data were processed

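The authors deposited 1 processed log ratio per probe for each of 12 two-colour arrays. The deposited values are read here as log2, but no source used here gives the log base, a scale factor, the normalization or a spot filter, so differences are in deposited units without folds. Probe sequences were not used here, and cross-hybridisation was not checked. Of 22370 probes, 8757 had a gene name through the platform annotation, and 8724 of these were updated by gene identifier to WBcel235. The linear model of limma 3.58.1 (R 4.3.3, eBayes, two-sided tests) compared the groups, without covariates, over all probes with a value on at least 4 arrays per group, adjusted by Benjamini-Hochberg with a threshold of 0.05. The code was tested on simulated arrays. SEs are moderated. The limma p-values set each group difference against the spread between samples of a group, and the number of arrays limits their precision. Members and gene lists were chosen with earlier results of these data known. Named are all idp genes, up to 8 called genes of the pharynx and cuticle lists (smallest p first), and for each member the 5 highest and 3 lowest genes by r (5 highest after subtracting group means). Neighbours were added later. Replicate numbers were not treated as pairs: deviations of same-numbered arrays correlated above 0.1 in 1 of 6 pairs. For 3 of the 6 control arrays, however, the best correlated LiCl array was the same-numbered one. These values do not settle whether the numbers mark pairs. Alternatives were 3 other scalings, fully measured probes, array weights, another variance prior, a replicate block, and leaving out each array. Figures used matplotlib 3.10.9.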

Additional observations from a re-analysis of the deposited data

Results flagged for a closer look

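For the named genes, 134 sets of arrays (each gene in each group) were searched for a lone array far from its 5 fellows, and 9 were found, where chance flags about 1 in 20, or 6.7. None was in idpp-2 or idpp-7. In the idp family, control replicate 5 stood apart in idpc-2 (-1.931), LiCl replicate 4 in idpa-1 (0.9317), LiCl replicate 2 in idpc-7 (-1.449), LiCl replicate 3 in idpb-1 (-3.367) and LiCl replicate 5 in idpb-4 (0.4731). Among genes of similar pattern, control replicate 3 stood apart in ptr-25 (-0.7371), and control replicate 6 in fask-1 (1.111). Control replicate 3 (1.076) and LiCl replicate 6 (-1.27) stood apart in C27D8.1, beside idpp-7.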

How the results depend on the processing

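The differences of idpp-2 (1.91 to 2.37) and idpp-7 (1.09 to 1.24) kept their sign and moved by less than 1 SD under all 19 settings. The lowest idpp-2 value came with quantile normalization, and leaving out 1 array gave 2.10 to 2.37 for idpp-2 and 1.09 to 1.24 for idpp-7. With the replicate block the differences were 2.25 ± 0.33 (SE) and 1.16 ± 0.14 (SE), 1393 probes were called against 1789, and the count of called pharynx genes fell to 1, as phat-8 had an adjusted p of 0.0697 with that block. C27D8.3 (adjusted p = 0.0697), C27D8.4 (0.0552) and Y73F8A.26 (0.0534) also missed the threshold there. Without a change of setting Y116A8B.1 (limma adjusted p = 0.0324), enri-2 (0.0404) and Y39A3A.3 (0.0499) were called. Their calls held in 10, 10 and 8 of the 19 settings. Leaving out 1 array gave 1181 to 1600 called probes and 479 to 681 called lower, with the lowest counts without control replicate 4 and control replicate 6. It gave 697 to 976 called higher, 0 to 2 other idp genes, 1 to 2 pharynx genes and 2 body cuticle genes. The within-LiCl correlation of idpp-2 and idpp-7 had an exact permutation p of 0.05 with arrays divided by their median absolute deviation, an alternative chosen after seeing the data. Why these values moved was not tested. Spot intensities were not used, so signal over background is unknown.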
